A study of Mus musculus with 4 samples.

Results

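The genes described here are the chondrogenic SOX factors Sox9, Sox5 and Sox6 and 7 genes of cartilage matrix proteins, Acan, Hapln1, Matn1, Matn3, Comp, Chad and Ucma. They were taken by symbol from a table of raw read counts, in which all 10 were found among 56980 listed genes. The libraries came from the bone marrow of 4 male wild-type mice, aged 14 weeks, of the strain C57BL/6J, bred as an inbred line in-house for 30 years, with 1 library from each mouse. Mesenchymal stromal cells (MSCs), the stromal cells that form part of the niche of hematopoietic stem cells, were sorted from flushed and digested femurs as CD51+ PDGFRa+ cells that were CD45-, Ter119-, CD31- and Sca1-. Each library held cDNA of only 100 cells, and all mice shared genotype, age and sort, so that the libraries form one group with no contrast between conditions. The question asked of them here was which of these genes are expressed in adult MSCs. The study itself used the libraries to look for ligand and receptor pairs between MSCs and macrophages. Its cutoff for an expressed ligand or receptor was a median of 1 TPM, which is applied here to every gene. TPM are transcript counts corrected for gene length and scaled to 1000000 per library.

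SOX9 is the transcription factor that sets the chondrocyte fate, and SOX5 and SOX6, which have no activation domain of their own, bind beside it and strengthen its action on cartilage genes. Aggrecan (Acan) is the large proteoglycan that holds water in cartilage, and the link protein Hapln1 fixes it to hyaluronan. Matrilins (Matn1, Matn3) and COMP connect collagen fibrils with proteoglycans, chondroadherin (Chad) binds collagen and integrins on chondrocytes, and UCMA is a small secreted protein of young chondrocytes that is modified by vitamin K. COMP is also made in tendon and ligament, and chondroadherin in bone. Skeletal stromal cells can give rise to cartilage, bone and fat, which is why such genes are of interest in sorted MSCs.

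Promoters are shown for 3 members with the most different patterns described below, namely the member with the highest level in 3 mice (Chad), a member found in a single mouse (Ucma) and the member with no count in any mouse (Matn1). Each sequence covers the 250 bases before the annotated start on the plus strand of GRCm38.p6, from RefSeq, and capitals mark the motif TATAAA. The windows lie at chr11:94564797-94565046 for Chad, chr2:4975872-4976121 for Ucma and chr4:130944135-130944384 for Matn1.
Chad: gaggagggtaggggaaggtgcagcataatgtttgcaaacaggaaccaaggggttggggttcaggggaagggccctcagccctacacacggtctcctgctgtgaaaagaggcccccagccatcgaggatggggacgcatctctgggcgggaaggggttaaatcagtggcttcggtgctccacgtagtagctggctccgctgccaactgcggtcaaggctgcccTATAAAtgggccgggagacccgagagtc
Ucma: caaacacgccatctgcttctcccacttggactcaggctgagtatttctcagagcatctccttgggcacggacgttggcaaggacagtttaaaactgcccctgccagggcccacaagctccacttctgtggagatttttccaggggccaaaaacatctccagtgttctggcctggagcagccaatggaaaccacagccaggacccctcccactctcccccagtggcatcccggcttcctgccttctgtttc
Matn1: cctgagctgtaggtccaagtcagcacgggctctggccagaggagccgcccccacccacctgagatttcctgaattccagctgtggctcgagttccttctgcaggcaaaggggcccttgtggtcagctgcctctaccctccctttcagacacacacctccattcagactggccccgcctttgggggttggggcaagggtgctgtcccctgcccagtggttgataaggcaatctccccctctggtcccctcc

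RefSeq windows were found for 8 of the 10 members, 13 windows in all, because Sox6 has several starts. The motif TATAAA, searched on both strands, was in 2 of these windows, those of Chad and of 1 start of Sox6, and in 12.4% of 32851 promoters of the same length. In Chad it lay on the plus strand, from -28 to -23 relative to the start, and 1.99% of all promoters had it on the plus strand between 40 and 16 bases before the start. The SOX core ACAAT, again on both strands, was in 5 windows of 3 members (Sox5, Sox6 and Hapln1) and in 27.7% of all promoters. These matches describe letters only.

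The depth of the libraries was between 22738604 and 43545349 counts on genes, and between 16109 and 18907 genes had a count. The sorted phenotype was found in the RNA for most antigens. Itgav, which codes for CD51, had between 12.9 and 18.1 TPM and Pdgfra between 30.7 and 48.2 TPM, whereas Ptprc (CD45) and Pecam1 (CD31) were below 0.27 TPM in every mouse. Ly6a, which codes for Sca1, went against the gate in 2 mice, with 8.95 TPM in mouse 2 and 11.6 TPM in mouse 4. All 6 niche markers looked at (Cxcl12, Lepr, Prrx1, Kitl, Foxc1 and Ebf3) were above 1 TPM in every mouse. The library of mouse 1 stood apart for the cartilage genes, as described below, and results that rest on it are given with and without it. In bulk libraries, fewer cells of a type and less RNA per cell cannot be told apart.

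Comp and Chad were the 2 members found at clear levels in every mouse, Sox9, Sox6 and Hapln1 passed the cutoff through some mice, Ucma and Matn3 were found in mouse 1 only, and Matn1 was not detected. A median above 1 TPM was reached by 5 of the 10 members, namely Sox9, Sox6, Hapln1, Comp and Chad. The same cutoff was passed by 22.9% of all genes with an annotated length and by 44.2% of the protein-coding genes, a share near that of the members. More than 1 TPM in every mouse was reached by 2 of the 10 members, Comp and Chad, and by 30.1% of protein-coding genes. The median over the members of their median TPM was 0.883, against 0.135 over protein-coding genes. Without mouse 1, only Sox6, Comp and Chad kept a median above 1 TPM, and Sox9 and Hapln1 fell below it.

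**Figure D1:**
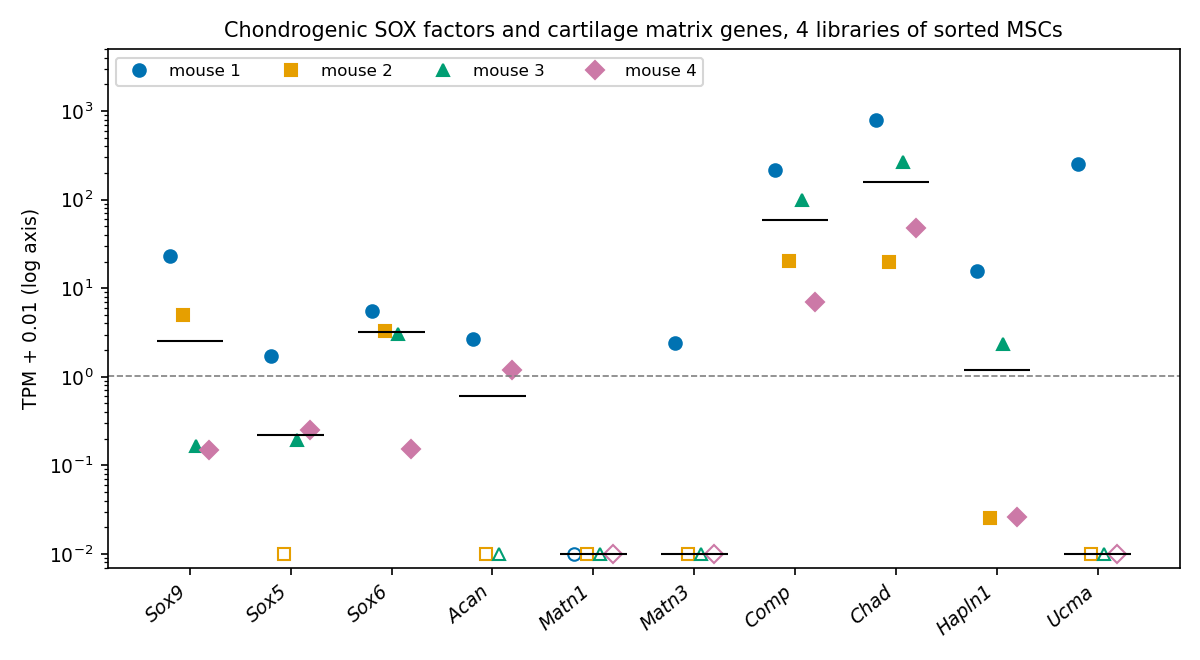
TPM + 0.01 of each member on a log axis, with 1 point per mouse, a black line at the median of the 4 mice, a dashed line at 1 TPM and open symbols for 0 counts. Mouse 1 is the highest point of all 9 members with a count, Chad and Comp are above the dashed line in every mouse, and Matn1 has 0 counts throughout.

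Among the SOX factors, Sox6 was the most even between mice, and Sox9 and Sox5 were both less even. Sox9 (ENSMUSG00000000567, chromosome 11, 112782224 to 112787760, plus strand, GRCm38) had counts of 1698, 228, 11 and 6 in mice 1, 2, 3 and 4, or levels of 23.3, 4.96, 0.154 and 0.140 TPM. The mean was 7.15 ± 11.0 TPM (SD, n = 4) and the median 2.56 TPM. Sox9 was thus above the cutoff in mice 1 and 2 and far below it in mice 3 and 4, and the median lies in the gap between these pairs, where no mouse had a value. Its level in mouse 1 was 4.71 times that in mouse 2, 152 times that in mouse 3 and 166 times that in mouse 4. Mouse 3 had nearly the same depth as mouse 1 (42747050 and 43545349 counts), so that Sox9 would have had 1667 counts in mouse 3 at its share of mouse 1, where 11 were counted.

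Sox5 (ENSMUSG00000041540, chromosome 6, 143828425 to 144781977, minus strand) was the lowest of the SOX trio, with 434, 0, 45 and 36 counts or 1.72, 0, 0.181 and 0.242 TPM, a mean of 0.535 ± 0.794 TPM (SD, n = 4). Only mouse 1 was above 1 TPM, and no read was counted in mouse 2, where 3 counts would correspond to 0.0188 TPM. Its exons share 1330 bases, or 9.25% of their length, with Sox5os1 on the opposite strand, and the counting used no strand information, but Sox5os1 had 0 counts in every mouse.

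Sox6 (ENSMUSG00000051910, chromosome 7, 115470872 to 116038796, minus strand) had 1445, 538, 781 and 22 counts or 5.54, 3.26, 3.05 and 0.144 TPM, a mean of 2.997 ± 2.21 TPM (SD, n = 4) and a median of 3.15 TPM. Here mice 1, 2 and 3 lay close together above the cutoff and mouse 4 was the low one, a pattern that no other member had. The coefficient of variation (CV, the SD as a percent of the mean) of Sox6 was 73.8%, against 154% for Sox9 and 148% for Sox5. Counting error alone would give 3.87%, 4.61% and 8.94% for these 3 genes. Of 5287 genes with a mean within 2-fold of that of Sox6, 37.1% had a lower CV, whereas 90.4% of the 5133 genes near the mean of Sox9 had a CV lower than that of Sox9.

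The order of the SOX factors changed from mouse to mouse. Sox9 was the highest of the trio in mice 1 and 2, Sox6 in mouse 3 and Sox5 in mouse 4, where all 3 were below 0.25 TPM. The difference between Sox9 and Sox5 in log2(TPM + 1) was 3.16, 2.57, -0.03 and -0.12 in mice 1 to 4, a mean of 1.40 ± 1.72 (SD, n = 4), which is smaller than its own spread. For Sox9 minus Sox6 it was 1.90, 0.48, -1.81 and -0.00, a mean of 0.14 ± 1.53 (SD, n = 4), with both signs among the mice. Sox5 minus Sox6 was -1.27, -2.09, -1.78 and 0.12, a mean of -1.25 ± 0.98 (SD, n = 4), so that Sox5 was the lower in 3 of 4 mice and the mean exceeded the SD. By exact permutation of the signs over the mice (two-sided), these differences had p = 0.5, 0.75 and 0.25, or 0.833, 0.938 and 0.833 after Benjamini-Hochberg adjustment over the 5 pairs compared. With 4 mice the smallest p this exact test can give is 0.125, so that no pair could reach significance.

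Sox4 was the one SOX gene with a higher median than Sox6 and Sox9. Of 16 other SOX family genes, 2 had a median above 1 TPM and 8 had no count in any mouse. Sox4, a SOX gene of many progenitor cells, was even between mice, with 29.1, 34.5, 35.4 and 29.3 TPM in mice 1 to 4, above Sox9 in each of them. Sox13, the closest relative of Sox5 and Sox6, had 1.07, 0, 2.89 and 5.52 TPM and was highest in mouse 4, where Sox6 was lowest. Sox8 and Sox10, the closest relatives of Sox9, had at most 2 counts in a library.

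Chad (ENSMUSG00000039084, chromosome 11, 94565047 to 94569127, plus strand) had the highest mean of all members. It had 23299, 374, 7765 and 826 counts or 788, 20.01, 267 and 47.6 TPM across mice 1 to 4, with a mean of 281 ± 356 TPM (SD, n = 4) and a median of 158 TPM, higher than that of 98.7% of genes with a length. Every mouse was above the cutoff by a wide margin, but the highest mouse was 39.4 times the lowest. Comp (ENSMUSG00000031849, chromosome 8, 70373558 to 70382066, plus strand) had 11419, 676, 5061 and 212 counts or 219, 20.5, 98.7 and 6.91 TPM, a mean of 86.2 ± 97.2 TPM (SD, n = 4) and a median of 59.6 TPM. Mice 1 and 3 were high for both genes and mice 2 and 4 low, with Chad lowest in mouse 2 and Comp lowest in mouse 4. Together Chad and Comp made up between 76.7% and 98.5% of the summed TPM of the members in a library. Their CVs were 127% for Chad and 113% for Comp, and a lower CV was found in 99.6% of the 564 genes near the mean of Chad and in 98.5% of the 1415 genes near that of Comp. Few genes at these levels thus differed as much between the mice.

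Ucma (ENSMUSG00000026668, chromosome 2, 4976122 to 4985748, plus strand) was present in mouse 1 alone. It had 3952 counts or 254 TPM there, the rank 447 of all genes, and 0 counts in mice 2, 3 and 4. At its share of mouse 1, 2364 counts would have been found in mouse 2, 3880 in mouse 3 and 2064 in mouse 4. A count of 0 allows up to 3 counts, which are 0.305, 0.196 and 0.328 TPM in mice 2 to 4, so that Ucma was at least 833-fold, 1294-fold and 774-fold higher in mouse 1. Matn3 (ENSMUSG00000020583, chromosome 12, 8947929 to 8972028, plus strand) showed the same at a low level, with 128 counts or 2.41 TPM in mouse 1 and 0 counts in the others. By the same limit on reads, Matn3 was at least 27.0-fold, 41.9-fold and 25.1-fold higher in mouse 1 than in mice 2, 3 and 4. Such detection in mouse 1 with under 3 counts in each other mouse was found for 1.86% of the protein-coding genes above 1 TPM in any mouse, and for 2 of the 9 members in that class. Both members were in that class through mouse 1 alone. Means over the mice (63.5 ± 127 TPM for Ucma and 0.603 ± 1.21 TPM for Matn3, SD, n = 4) describe no mouse that was measured.

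Matn1 (ENSMUSG00000040533, chromosome 4, 130944385 to 130955475, plus strand), a matrilin of mature cartilage, had 0 counts in every mouse. The limit that 0 counts allow, within counting error alone, is 0.0852, 0.135, 0.0868 and 0.145 TPM in mice 1 to 4. A lower level was not detectable at this depth. The difference Matn3 minus Matn1 in log2(TPM + 1) was 1.77 in mouse 1 and 0 in the other 3, a mean of 0.44 ± 0.89 (SD, n = 4; exact sign-flip permutation p = 1, adjusted p = 1). Of the other matrilins, Matn2, which is made in many tissues, was found in every mouse with 11.95, 1.35, 1.95 and 0.819 TPM, again highest in mouse 1, and Matn4 had 22 counts in mouse 1 and none in the others.

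Aggrecan and its link protein were not found together in most mice. Acan (ENSMUSG00000030607, chromosome 7, 79053483 to 79115099, plus strand) had 347, 0, 0 and 92 counts or 2.64, 0, 0 and 1.19 TPM in mice 1 to 4, a median of 0.596 TPM. Hapln1 (ENSMUSG00000021613, chromosome 13, 89539796 to 89611652, plus strand) had 1622, 1, 237 and 1 counts or 15.6, 0.0152, 2.32 and 0.0164 TPM, a mean of 4.49 ± 7.50 TPM (SD, n = 4) and a median of 1.17 TPM. Mouse 1 had both genes, mouse 3 had Hapln1 without Acan, mouse 4 had Acan with 1 count of Hapln1, and mouse 2 had 1 count of Hapln1 and none of Acan. The difference Acan minus Hapln1 in log2(TPM + 1) was -2.19, -0.02, -1.73 and 1.11, a mean of -0.71 ± 1.53 (SD, n = 4), smaller than its spread (exact sign-flip permutation p = 0.375, adjusted p = 0.833). Hapln1 was 1026 times as high in mouse 1 as in mouse 2 (exact 95% counting interval 184 to 40535) and 6.72 times as high as in mouse 3. Within counting error alone, Acan was at least 114-fold higher in mouse 1 than in mouse 3, where its share of mouse 1 would have given 341 counts.

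**Figure D2:**
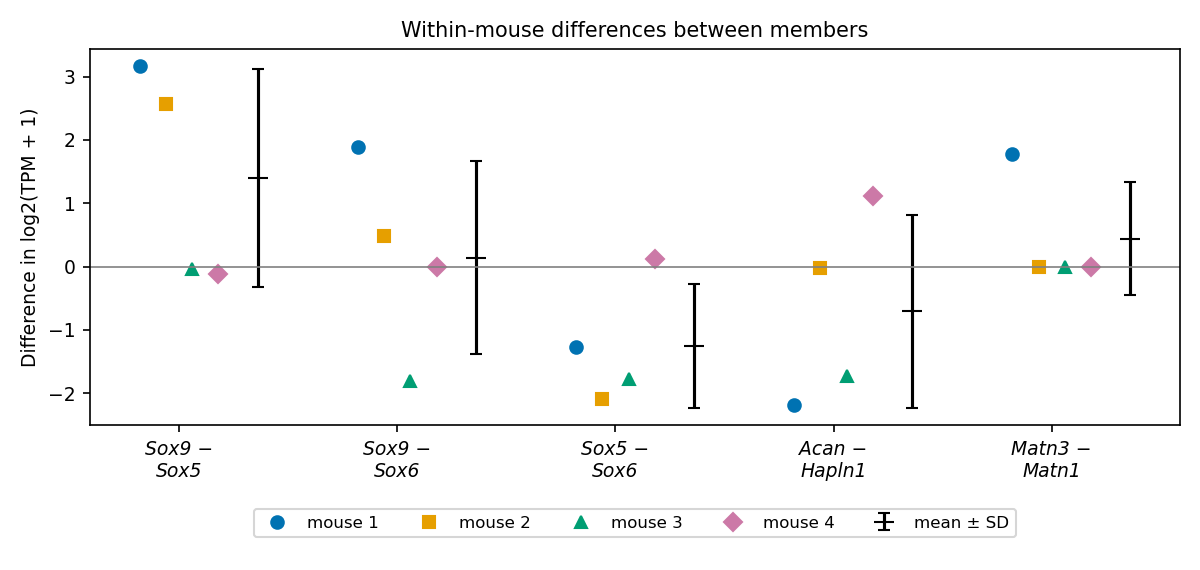
Difference in log2(TPM + 1) between 2 members within each mouse, for the 5 pairs compared, with 1 point per mouse and the mean ± SD in black. Only for Sox5 minus Sox6 is the mean (-1.25) larger than its SD (0.98).

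Relatives of both proteins were also present. The link protein gene Hapln4, known mainly from the brain, had 23.3, 0.229, 20.9 and 14.97 TPM, a higher level per length than Hapln1 in each mouse, and Hapln2 had no count. Among the aggrecan relatives, Vcan (versican) was low but found in every mouse, with 0.404 to 1.20 TPM, and Bcan had 6.70, 0, 5.95 and 0 TPM. Of 14 relatives of the members listed, 8 had a median above 1 TPM, 3 were above 1 TPM in every mouse and 7 of the 10 above 1 TPM in any mouse were highest in mouse 1. The median over this list of the median TPM was 2.31, against 0.135 over protein-coding genes. The aggrecanase gene Adamts5 was above Acan in every mouse, with 4.82, 12.6, 27.2 and 12.2 TPM. Adamts4, another aggrecanase gene, had 4.16, 0.131, 3.85 and 0 TPM, highest in mouse 1 and below Acan in mouse 4. The collagenase gene Mmp13 had 502, 1927, 2298 and 670 TPM and was lowest in mouse 1.

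Ordered by mean TPM, the members ran from Chad, Comp, Ucma, Sox9, Hapln1, Sox6, Acan, Matn3 and Sox5 to Matn1. Of the 9 pairs of neighbours in this order, Chad and Comp (mean difference in log2(TPM + 1) 1.46 ± 1.11, SD, n = 4) and Comp and Ucma (3.46 ± 2.87) differed by more than their SD, each in 3 of 4 mice. The other 7 neighbouring pairs, from Ucma and Sox9 down to Sox5 and Matn1, differed by less than their SD between mice, with means between -0.29 and 1.0. Over all 45 pairs of members, 21 differed by more than their SD. The order within a single mouse was not that of the means. Comp and Chad were level in mouse 2, at 20.5 and 20.01 TPM, Ucma was above Comp in mouse 1, and Acan was the next after Chad and Comp in mouse 4.

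All 9 members with a count were highest in mouse 1. Among the 12181 protein-coding genes above 1 TPM in any mouse, 25.9% were highest in mouse 1, so that this mouse was not generally the highest. The share in mouse 1 of the summed TPM over the mice was 46.2% for Sox6, 63.4% for Comp, 68.9% for Acan, 70.2% for Chad, 80.2% for Sox5, 81.6% for Sox9, 86.9% for Hapln1 and 100% for Matn3 and Ucma. The median of these shares was 80.2%, against 23.4% over the protein-coding genes, and a share over 50% was found for 8 of the 9 members and for 9.81% of the protein-coding genes. The members summed to 1312, 48.7, 372 and 56.2 TPM in mice 1 to 4, so that mouse 3 was second and mice 2 and 4 were low and alike. With at least 3 counts, 9 of the 9 members were found in mouse 1, 4 in mouse 2 and 6 in each of mice 3 and 4, where the share of the protein-coding genes was 87%, 76.8%, 90.1% and 84.7% in mice 1 to 4. Mouse 2 thus had the lowest number of both, and mouse 3 had the highest share of protein-coding genes. Sox5, Matn3 and Ucma were above 1 TPM in mouse 1 only, so that they were in the class of genes above 1 TPM through mouse 1 alone. Their detection in mouse 1, and their being highest there, was thus set in advance. The counts of members given here for mouse 1 include them. A gap between mouse 1 and the next mouse that passed Dixon's 95% critical value for 4 values was found for 4 of the 9 members (Sox5, Matn3, Hapln1 and Ucma) and for 3.65% of the protein-coding genes, and a gap at any mouse for the same 4 members and for 18.4% of the protein-coding genes. Under 3 counts in at least 1 mouse was found for 5 of the 9 members (Sox5, Acan, Matn3, Hapln1 and Ucma) and for 33.1% of the protein-coding genes.

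**Figure D3:**
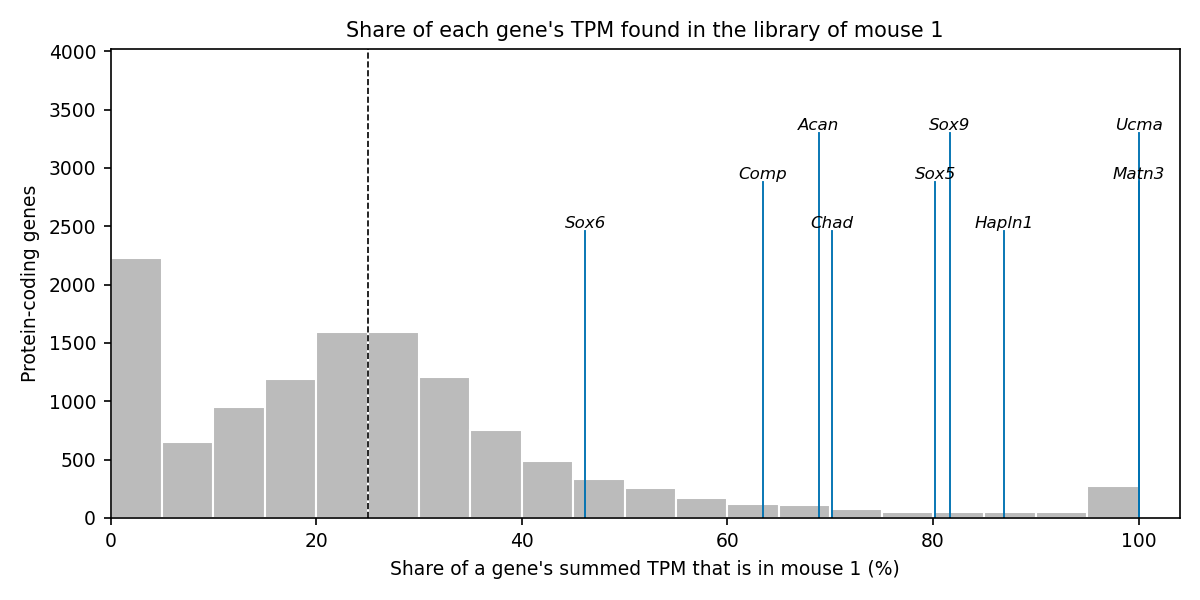
Grey bars count protein-coding genes above 1 TPM in any mouse by the share of their summed TPM that lies in mouse 1 (%), blue lines give the 9 members with counts, and the dashed line is an equal share among the 4 mice. The members lie between 46.2% (Sox6) and 100% (Matn3 and Ucma), to the right of the median of 23.4% for protein-coding genes.

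With lengths of the longest transcript, with no length, with a protein-coding denominator and with the scaling factors of edgeR (TMM) and DESeq2, alternatives chosen after the data had been seen, the same 9 members were highest in mouse 1. This check could show little. Another length changes a gene alike in every mouse, apart from the total to which each library is scaled. The other scalings could give no other outcome, since they changed a library by less than the smallest lead of mouse 1 (1.70-fold, Sox6 over mouse 2). The mean TPM without mouse 1 was 112 for Chad, 42.0 for Comp, 2.15 for Sox6, 1.75 for Sox9, 0.785 for Hapln1, 0.397 for Acan and 0.141 for Sox5, and 0 for Ucma and Matn3. Chad, Comp and Sox6 had the highest means over these 3 mice, although Sox9 was above Sox6 in mouse 2 and Acan was above it in mouse 4.

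Other genes of cartilage were split between 2 patterns. The cartilage collagens Col2a1, Col11a1 and Col11a2 were high in every mouse and did not share the pattern of the members. Col2a1, the main collagen chain of cartilage, had 208, 386, 137 and 395 TPM in mice 1 to 4, with mouse 1 below mice 2 and 4. Col11a1, which codes for a minor chain of the same fibrils, had 406, 371, 245 and 468 TPM. Col11a2 had 345, 228, 214 and 218 TPM and was the one of the 3 that was highest in mouse 1. The chains of collagen IX, which sits on these fibrils, were low or missing. Col9a1 was highest in mouse 3 at 12.2 TPM, Col9a2 had 1 count in all, and Col9a3 had 413 counts or 6.09 TPM in mouse 1 only. Col10a1, the marker of hypertrophic chondrocytes, had 1 count in all. Of 7 cartilage collagens, 4 had a median above 1 TPM and 2 of the 5 above 1 TPM in any mouse were highest in mouse 1, and the list summed to 967, 986, 608 and 1081 TPM.

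Of 21 other cartilage genes, 14 had a median above 1 TPM, 8 were above 1 TPM in every mouse and 4 (Epyc, Ihh, Gdf5 and Nkx3-2) had no count. The median over the list of the median TPM was 8.55, against 0.135 over protein-coding genes. Highest in mouse 1 were 7 of the 17 above 1 TPM in any mouse. Snorc, a chondrocyte proteoglycan, had 1861 counts or 147 TPM in mouse 1 and 0 in the others, and so did Scrg1 (115 TPM) and Cnmd, which codes for chondromodulin (10.9 TPM). Cytl1, a cytokine-like protein of chondrocytes, had 7649, 0, 0 and 18.6 TPM, a level in mouse 1 above that of any member. Cilp, a protein of the intermediate layer of cartilage, had 191, 0.0423, 5.69 and 14.5 TPM, Cilp2 83.4, 0, 10.4 and 0 TPM, and Prg4, the lubricin of joint surfaces, 356, 7.22, 17.9 and 118 TPM.

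The remaining 10 genes of this list above 1 TPM in any mouse were highest in another mouse. The parathyroid hormone receptor gene Pth1r had 291, 210, 314 and 151 TPM, and Papss2, an enzyme gene of sulfate activation for proteoglycans, 28.7, 52.8, 40.6 and 46.8 TPM. Fmod (fibromodulin) was high in mice 3 and 1, at 197 and 135 TPM, and low in mice 2 and 4, at 21.3 and 1.93 TPM, as Comp was. The list summed to 9186, 433, 934 and 489 TPM, the sum of mouse 1 being mostly Cytl1.

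**Figure D4:**
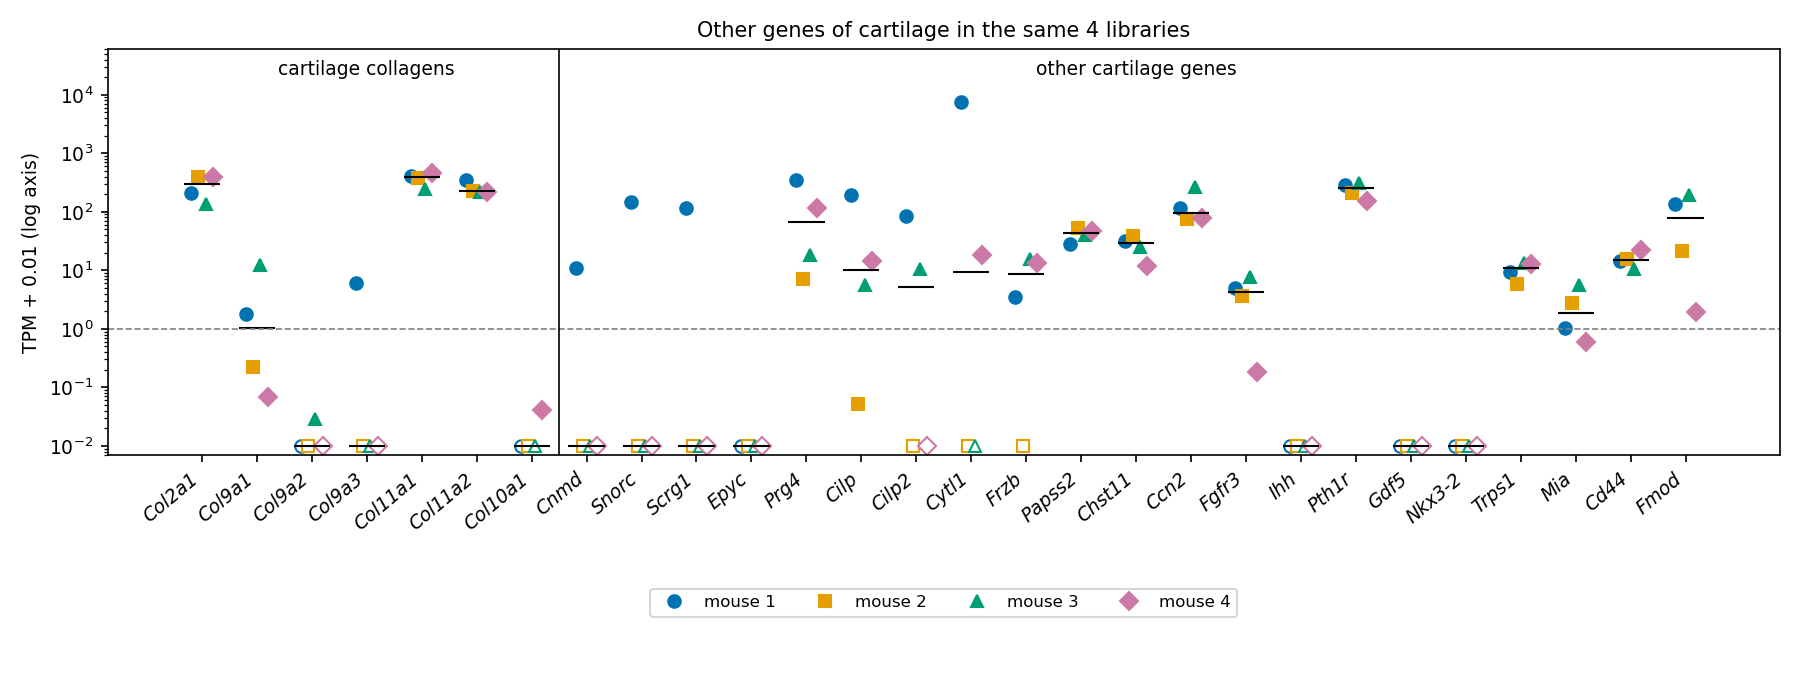
TPM + 0.01 on a log axis for 7 cartilage collagens (left) and 21 other cartilage genes (right), with 1 point per mouse, black lines at the median, a dashed line at 1 TPM and open symbols for 0 counts. Col2a1, Col11a1 and Col11a2 lie between 137 and 468 TPM in every mouse, whereas Snorc, Scrg1 and Cnmd have counts in mouse 1 only.

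Markers of other cells also differed between the mice. The 3 erythroid genes looked at, Hba-a1, Hbb-bs and Alas2, were highest in mouse 1. Their summed TPM was 3725, 21.1, 1298 and 270.03, in the order of mice (1, 3, 4 and 2) that Chad had as well. The summed members had this order too, but they are mostly Chad and Comp, and Comp had the order 1, 3, 2 and 4. The 2 haemoglobin genes in the erythroid sum have near-identical copies that can share reads. Alas2, an enzyme gene of heme synthesis in red cell precursors, had 19.99, 0, 7.42 and 0 TPM, although the gate was Ter119-, against an antigen of red cells. In mouse 3, where the erythroid sum was second highest, Chad, Comp and Hapln1 were second highest as well. Sox9 and Sox6 were higher in mouse 2 than in mouse 3, and Sox5 was higher in mouse 4. Ucma, Matn3, Acan and Matn1 had 0 counts in mouse 3. Among the tendon genes, Scx had 7.56, 0.269, 9.20 and 7.62 TPM, Tnmd 0, 0, 29.1 and 18.2 TPM and Mkx 0.305, 18.5, 9.31 and 0.520 TPM, each with another order of mice than Comp. Their sum was 7.87, 18.8, 47.6 and 26.4 TPM. The macrophage list was at or near 0, with no count of Adgre1, Csf1r or C1qa and a sum of 0 to 6.63 TPM, and the endothelial list summed to 0 to 1.12 TPM. The pericyte and smooth muscle list summed to 0, 29.1, 0 and 4.11 TPM, the neutrophil list to 30.7, 19.7, 4.09 and 7.84 TPM, the glia and melanocyte list to 42.7, 55.6, 67.2 and 16.3 TPM, and the osteocyte list to 1337, 648, 2246 and 491 TPM. The MSC niche list summed to 1067, 4644, 2387 and 1243 TPM and the adipocyte list to 199, 962, 439 and 234 TPM. Both sums were lowest in mouse 1, and the niche sum was mostly Cxcl12 (983, 4329, 2224 and 1079 TPM). Lepr, Kitl, Foxc1 and Ebf3 were also lowest in mouse 1, whereas Prrx1 was highest there (19.4 TPM). Of the adipocyte genes, Lpl and Cebpa were lowest in mouse 1. Adipoq was level in mice 1 and 4 (184 and 185 TPM), and Pparg was lowest in mouse 4 (0 TPM). The osteoblast list summed to 139470, 158782, 100069 and 196793 TPM, mostly from Bglap (96604, 119827, 55668 and 156730 TPM). Its other genes had other orders of mice. Ibsp and Alpl were highest in mouse 3, Sp7 and Col1a1 in mouse 1 and Runx2 in mouse 2. The part of any of these in the values of the members was not tested.

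The genes with the profile most like a member were sought for the 5 members past the cutoff, among 9679 protein-coding genes past it, by the root mean square difference of log2(TPM + 1) over the 4 mice after each gene's mean had been subtracted. Sox6 had the closest profiles, with Gramd3 (0.07), Zfp664 (0.08) and Mospd3 (0.11). The nearest genes were Wrap53 (0.15), Faap100 (0.18) and Traf5 (0.19) for Hapln1, Hspa2 (0.22), Trim10 (0.24) and Rpa2 (0.24) for Chad, and Tmem237 (0.26), Slc25a14 (0.33) and Nt5dc1 (0.35) for Comp. For Sox9 no profile was as close, the nearest being Adh1 (0.44), Me1 (0.51) and Pomt1 (0.51). None of these 15 genes is on the cartilage lists. That absence was partly set by the search, which left out the members and all genes below the cutoff, such as Snorc, Scrg1 and Cnmd. The measure describes 4 libraries only.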

How the data were processed

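RNA-seq libraries of 100 sorted MSCs from each of 4 mice were analysed as one group, and the mice are the replicates. The authors deposited raw counts per Ensembl gene. According to their notes, read pairs from full-length, PCR-amplified cDNA were aligned to GRCm39 with STAR 2.7.10 and counted on exons with featureCounts (Subread 1.6.5), with no strand option among the parameters given, after bcl2fastq 2.20.0. A second pipeline is also described, and the description specific to MSCs was taken to apply.

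TPM was computed here in Python 3.11.15 (numpy 2.4.6, pandas 2.3.3, scipy 1.17.1) from the counts and the merged exon length in GENCODE M21 on GRCm38, joined by gene identifier, for 52125 genes holding 96.1% to 98.2% of the counts of a library. A gene whose exons differ between these annotations has a TPM off by the ratio of lengths. Coordinates are those of GRCm38. The code was tested on simulated data. Depth sets the lowest detectable level, and 3 counts correspond to 0.0689 to 0.132 when a library is brought to 1000000. Such limits and intervals cover counting error only, since PCR copies are not independent molecules. No member has a near-identical copy (BLAST 2.17.0, 95% identity over at least 100 bases).

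Levels are mean ± SD and median. Differences between 5 pairs of members within a mouse were tested on log2(TPM + 1), pseudocount 1, with the exact sign-flip permutation test. Alternatives were another length, none, a protein-coding denominator, TMM factors (edgeR 4.0.16) or DESeq2 1.42.0 size factors in R 4.3.3, other cutoffs, a pseudocount of 0.1 and leaving out each mouse. All members, all genes of the lists and, for each member past the cutoff, the 3 nearest profiles could be named. The members and lists were chosen with earlier results of these data known. One gene of the marker lists is not reported here.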

Additional observations from a re-analysis of the deposited data

Results flagged for a closer look

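Within the group of 4 mice, a value was picked out when its gap to the nearest mouse, as a share of the whole range, passed Dixon's 95% critical value for 4 values. Of 31 values compared, 8 passed, where the nominal rate of chance is about 1.55 (1 in 20 groups). That rate is too low for these counts, since 18.4% of the 12181 protein-coding genes above 1 TPM in any mouse passed as well. The values are not independent of each other, since several come from the same library.

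For 4 members the library of mouse 1 was the one set apart, as the highest, as it was for 3.65% of these protein-coding genes. The gap was 1 for Ucma and 1 for Matn3, which had counts in no other mouse, 0.859 for Sox5 and 0.852 for Hapln1. Ucma, Matn3 and Sox5 were above 1 TPM in mouse 1 only, so that they were in this class of genes through mouse 1 alone. The difference Matn3 minus Matn1 had a gap of 1, again from mouse 1, because Matn1 had no count at all. Sox9 came near, with a gap of 0.792, and did not pass. The summed TPM of the other cartilage genes had a gap of 0.943, with 9186 TPM in mouse 1 and at most 934 TPM in the others, most of it from Cytl1. The summed macrophage markers had a gap of 0.925 through mouse 3, at 6.63 TPM, and the summed pericyte and smooth muscle markers a gap of 0.859 through mouse 2, at 29.1 TPM. No member was highest in mouse 2 or mouse 3.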

How the results depend on the processing

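The number of members with a median above 1 TPM was 5 with the protein-coding denominator and with TMM or DESeq2 factors, 4 with the length of the longest transcript and 6 by the mean. It was 2 with a median above 5 TPM, 2 with more than 1 TPM in every mouse and 3 where every mouse had to have 10 or more counts. Without a length, 7 members had a median above 1 count per 1000000, which is another unit than TPM. Leaving out each mouse gave 3 to 5 members, the lowest without mouse 1, when Sox9 and Hapln1 were lost. Without mouse 2 Sox9 was lost and Acan gained, without mouse 3 Hapln1 was lost and Acan gained, and with the longest transcript Hapln1 was lost. Of 50 pair differences under alternatives, 45 kept their direction, 4 reversed and 1 was 0. Part of this was set in advance. Matn3 minus Matn1 could not turn negative, since Matn1 had 0 counts in every mouse. The protein-coding denominator and the TMM and DESeq2 factors change both genes of a pair alike within a mouse, so that they could hardly turn a direction. The reversals were all of Sox9 minus Sox6, at -0.31 with the longest transcript, -1.38 without a length, -0.25 with a pseudocount of 0.1 and -0.44 without mouse 1, against 0.14. Sox6 has a merged exon length of 14832 bases and a longest transcript of 8668, whereas both are 4135 for Sox9. A shorter length, or none, thus raises Sox6 relative to Sox9. Mouse 1 had the largest difference of this pair (1.90), so that leaving it out lowers the mean. The reversal with the other pseudocount was not tested further. Leaving out each mouse gave 0.81 to 1.90 for Sox9 minus Sox5, -0.44 to 0.79 for Sox9 minus Sox6, -1.71 to -0.97 for Sox5 minus Sox6, -1.32 to -0.22 for Acan minus Hapln1 and 0 to 0.59 for Matn3 minus Matn1, which was 0 without mouse 1, the only mouse with Matn3. Without a length, libraries were only scaled to 1000000 counts, and the means of 3 members were 3.15 (Sox5), 18.3 (Sox6) and 3.004 (Acan). These lay more than 1 SD of the TPM values from the TPM means, but the unit differs, so that this is no shift in level. Rescaling by TMM or DESeq2 factors changed a library by a factor of 0.894 to 1.09. No paired analysis was possible because all libraries belong to one group, so that mouse numbers pair no samples between groups. Depth limits what can be seen, since 3 counts of a member correspond to 0.0115 to 0.328 TPM.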

Other observations

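Among protein-coding genes above 1 TPM in any mouse, those with 3 or more counts in one mouse and under 3 in each of the others numbered 226 in mouse 1, 150 in mouse 2, 331 in mouse 3 and 449 in mouse 4, so that mouse 1 did not hold most of such genes. Their levels were mostly low, with a median of 3.75 TPM in mouse 1 and 2.51 TPM in mouse 4, and more than 50 TPM was reached by 3 of them in mouse 1, 1 in mouse 2, 0 in mouse 3 and 1 in mouse 4. The 3 in mouse 1 were Ucma (254 TPM), Snorc (147 TPM) and Scrg1 (115 TPM), which are all on the lists of members and cartilage genes used here. The next in mouse 1 were Ncmap (35.7 TPM) and Fam25c (32.0 TPM). These genes were singled out after their values had been seen, and no test was made of them.

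Among the other SOX genes, 2 were also found in a single library. Sox12 had 326 counts or 4.24 TPM in mouse 3, and Sox14 had 265 counts or 12.4 TPM in mouse 4, each with 0 counts in the other mice. Single-library detection was thus found for SOX genes in mice other than mouse 1 as well.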
